A study of Mus musculus with 6 samples.

Results

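The Iroquois genes Irx1 to Irx6 were followed in mouse hearts at the mid-gestation stage E12.5, in hearts labelled knockout for β1 integrin and in wild-type hearts. The members were taken as the rows of the deposited value table whose annotation gives 1 gene symbol and whose symbol is Irx1, Irx2, Irx3, Irx4, Irx5 or Irx6. All 6 were measured, each by 1 transcript cluster, among 19933 genes with such a row. Each group held 3 hearts, 1 Affymetrix Mouse Gene 1.0 ST array per sample, and the study looked for transcript differences at a stage before the mutant heart visibly failed. The sources used here give neither the strain, the allele, nor the promoter that drove any deletion, and they leave it unstated whether hearts were pooled. Each sample is called a heart below, and every p-value rests on the spread between samples. For limma's p-values the spread of each gene was drawn towards that of all clusters.

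Iroquois factors are homeodomain transcription factors of the TALE class, whose homeodomain carries an extra loop and which bind DNA together with partners. In mammals the genes lie in a pair of clusters, IrxA with Irx1, Irx2 and Irx4, and IrxB with Irx3, Irx5 and Irx6. In the embryonic heart Irx4 marks ventricular myocardium, Irx3 the trabeculae and later the ventricular conduction system, Irx5 the endocardium and the inner myocardial wall, and Irx1 and Irx2 the ventricular septum. Irx6 is the least studied member.

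The signal is the authors' log2 value from RMA, which corrects for background, brings the arrays to the same distribution and merges a cluster's probes into 1 value. A difference is knockout minus wild type on that log2 scale, with limma's standard error (SE). Because probes differ in how strongly they bind, the level of 1 Irx gene cannot be read against that of another. Where members are subtracted from each other below, only the change between the groups of hearts is read. The mean signal of the 6 genes lay between the 51.4th percentile of all clusters, for Irx6, and the 88.2nd, for Irx4. Irx6 was thus close to the median cluster. Signal over background was not measured, so these ranks do not show how far a gene lay above background.

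The targeted gene was measured first. In wild-type replicates 1 to 3 Itgb1 signal was 11.76, 11.80 and 11.78, and in knockout replicates 1 to 3 it was 11.53, 11.42 and 11.65. The knockout hearts all lay below the wild-type hearts, by -0.25 ± 0.09 (log2, SE; limma, adjusted p = 0.797). Where the probes lie relative to any deleted exon was not analysed here, so this signal is no firm check of the labels. Markers of cardiac muscle were near the top of the signal range, with the α-cardiac actin gene Actc1 at the 99.9th and the cardiac troponin T gene Tnnt2 at the 99.8th percentile. The array medians lay between 6.65 and 6.71, and the number of arrays limits the precision, with a median SE of 0.11 over all clusters. Knockout replicate 1 stood apart in erythroid markers, and the values of the Irx genes that it moves by over 1.5 times are given with and without it.

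Over all 28767 clusters limma called 0 at an adjusted p of 0.05, or 0% of those tested, so no Irx gene passed. Without adjustment, 1705 clusters (5.93%) had p under 0.05, and 825 of them (2.87% of all) were lower in the knockout. Among the Irx genes 2 of 6 were at that level, Irx3 and Irx4, both lower. That count was 4 of 6 without knockout replicate 1 (Irx1, Irx2, Irx3 and Irx5), where 5.62% of all clusters were at that level. It was 2 of 6 without knockout replicate 2 (6.74% of clusters). Only Irx3, 1 of 6, was left without knockout replicate 3 (9.43%), wild-type replicate 1 (4.23%) or wild-type replicate 3 (5.48%). Without wild-type replicate 2 it was 0 of 6 (3.74%). The mean was lower in the knockout for 5 of the 6 genes and higher for Irx6, where 53.5% of all clusters were lower. The median difference of the 6 genes was -0.21, against -0.02 over all genes. The knockout values lay wholly below the wild-type values for 1 of 6, Irx3, against 6.61% of all clusters. The count without overlap was 4 of 6 without knockout replicate 1, 3 of 6 without wild-type replicate 3 and 2 of 6 without wild-type replicate 2 or knockout replicate 2. The shares of all clusters so placed were 11.1%, 12.7%, 10.7% and 13%. The count stayed at 1 of 6 without wild-type replicate 1 (11.2% of clusters) or knockout replicate 3 (14.4%). In bulk hearts, fewer cells of a type and less RNA per cell cannot be told apart.

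**Figure D1:**
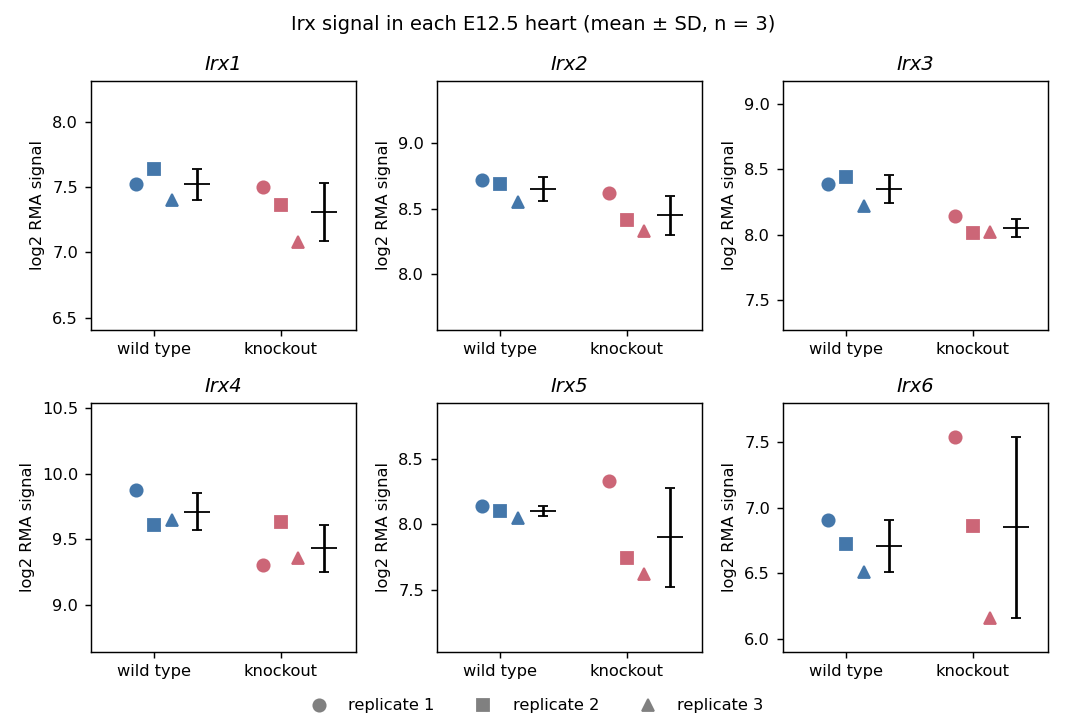
Log2 RMA signal (vertical axis, the same span in each panel) of Irx1 to Irx6 in 3 wild-type (blue) and 3 knockout (red) hearts, with symbols for the replicate number and bars for the mean ± SD. Irx3 is the gene whose groups do not overlap, and the knockout hearts are widely spread for Irx5 and Irx6.

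Irx3, the trabecular member, had the lowest p of the family. Its signal was 8.39, 8.44 and 8.22 in the wild-type hearts (replicates 1 to 3) and 8.14, 8.01 and 8.02 in the knockout hearts. Every knockout heart was below every wild-type heart, and the knockout hearts were close together. The means were 8.35 ± 0.11 (SD, n = 3) and 8.05 ± 0.07 (SD, n = 3), which left 81.5% of the wild-type signal. The difference was -0.30 ± 0.09 (SE), with a 95% interval of -0.51 to -0.08. It did not pass limma's test over all clusters (unadjusted p = 0.014, adjusted p = 0.797). An exact two-sided permutation test of the 6 values gave p = 0.1, the smallest that 3 hearts against 3 can give. When each heart was left out in turn the difference stayed between -0.36 and -0.25.

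Irx4, the ventricular member, differed by -0.28 ± 0.12 (SE), with a 95% interval of -0.57 to -0.0031. Its signal was 9.88, 9.61 and 9.65 in the wild-type hearts (replicates 1 to 3) and 9.30, 9.63 and 9.36 in the knockout hearts. Knockout replicates 1 and 3 were below all wild-type hearts, while knockout replicate 2 lay within the wild-type range. The means were 9.71 ± 0.14 (SD, n = 3) and 9.43 ± 0.18 (SD, n = 3), or 82.1% of the wild-type signal remaining. Limma gave an unadjusted p of 0.0481 and an adjusted p of 0.797, and the exact two-sided permutation p was 0.2. The unadjusted p was 0.0148 without knockout replicate 2 and over the 0.05 level, from 0.0511 to 0.164, without any of the other 5 hearts. Arrays were also weighted by how closely they follow the mean of their group over all clusters, which is no direct measure of array quality. This gives most weight to knockout replicate 2, and the difference was then -0.15.

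Upstream sequences were matched in RefSeq (build GRCm38.p6) for 3 of the 6 members, and are shown because the means of these genes were all lower in the knockout. Each is the 250 bases before the annotated start, 5′ to 3′ on the gene's strand. The Irx3 window is chr8:91801655-91801904 on the minus strand, that of Irx4 chr13:73260247-73260496 and that of Irx2 chr13:72628570-72628819, both on the plus strand. Capitals mark motif matches in Irx4 and Irx2, and in Irx3, which had no match, the longest run of A and G.
Irx3: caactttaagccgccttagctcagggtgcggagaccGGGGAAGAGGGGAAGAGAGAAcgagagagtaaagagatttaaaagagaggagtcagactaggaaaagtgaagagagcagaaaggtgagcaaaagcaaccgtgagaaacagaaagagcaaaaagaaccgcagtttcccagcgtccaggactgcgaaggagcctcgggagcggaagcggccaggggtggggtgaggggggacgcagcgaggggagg
Irx4: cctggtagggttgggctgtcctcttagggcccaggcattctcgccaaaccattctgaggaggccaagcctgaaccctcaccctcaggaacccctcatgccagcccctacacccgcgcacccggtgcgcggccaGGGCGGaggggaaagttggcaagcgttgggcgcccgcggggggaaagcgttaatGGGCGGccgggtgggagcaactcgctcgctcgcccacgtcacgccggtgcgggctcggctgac
Irx2: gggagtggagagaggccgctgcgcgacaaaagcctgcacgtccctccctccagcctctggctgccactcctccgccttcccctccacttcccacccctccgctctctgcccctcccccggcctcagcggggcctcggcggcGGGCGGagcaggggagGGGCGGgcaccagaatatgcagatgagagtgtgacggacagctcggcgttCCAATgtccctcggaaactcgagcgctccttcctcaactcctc

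The 3 windows differ in composition. In Irx3 73.6% of the bases are A or G, above 99.8% of 32851 RefSeq windows of this length, and its longest run of A and G is 21 bases against a median of 9. In Irx4 51.2% and in Irx2 44% of the bases are A or G, near or below the median of 50%. The windows of Irx4 and Irx2 hold 68.8% and 68.4% G and C, against 56% in Irx3 and a median of 52.4%. CG pairs number 22 in Irx4, 19 in Irx2 and 13 in Irx3, against a median of 6.

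Of 6 motifs searched on both strands, the GC box GGGCGG, present in 32.7% of all windows, was found at 2 places in Irx4, at 2 in Irx2 and at 0 in Irx3. The CCAAT box, written CCAAT and present in 33.8% of windows, was found once in Irx2 and not in Irx3 or Irx4. The TATA box TATAAA (12.4% of windows), the GATA motif AGATAA (9.99%), the NKX2-5 motif CAAGTG (11.6%) and the T-box motif GGTGTG (16.3%) were in none of the 3 windows. These are matches of letters, and their absence says only that these letters are not in these windows.

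The other IrxA members were lower by their means in the knockout, and their groups overlapped. Irx1 was 7.52, 7.64 and 7.40 in the wild-type hearts (replicates 1 to 3) and 7.50, 7.36 and 7.08 in the knockout hearts. Knockout replicate 1 was at the wild-type level, knockout replicate 3 was the lowest of the 6 hearts, and the groups overlapped. The difference was -0.21 ± 0.13 (SE; limma, adjusted p = 0.797), with a 95% interval of -0.51 to 0.09, and was -0.09 without knockout replicate 3. Irx2 was 8.72, 8.69 and 8.55 in the wild-type hearts (replicates 1 to 3) and 8.62, 8.41 and 8.33 in the knockout hearts. Knockout replicates 2 and 3 lay below all wild-type hearts, while knockout replicate 1 lay above wild-type replicate 3. The difference of Irx2 was -0.20 ± 0.11 (SE; limma, adjusted p = 0.797), with a 95% interval of -0.45 to 0.04.

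Irx5, expressed in endocardium and inner myocardium, was tightly grouped in wild-type and spread in knockout hearts. Its signal was 8.14, 8.10 and 8.05 in the wild-type hearts (replicates 1 to 3) and 8.33, 7.74 and 7.62 in the knockout hearts. Knockout replicate 1 was the highest of the 6 hearts and the other two were the lowest, so that the SD (n = 3) was 0.04 among wild-type and 0.38 among knockout hearts. The difference was -0.20 ± 0.18 (SE; limma, adjusted p = 0.844), with a 95% interval of -0.61 to 0.21. It was -0.42 without knockout replicate 1, -0.12 without knockout replicate 2 and -0.06 without knockout replicate 3.

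Irx6, which follows Irx5 in the IrxB cluster, showed the widest spread of the family. Its signal was 6.91, 6.72 and 6.51 in the wild-type hearts (replicates 1 to 3) and 7.54, 6.86 and 6.16 in the knockout hearts. The highest and the lowest of the 6 hearts were both knockout hearts. The difference of 0.14 ± 0.31 (SE; limma, adjusted p = 0.937) had a 95% interval of -0.58 to 0.86. It turned to -0.20 without knockout replicate 1, was 0.48 without knockout replicate 3, 0.24 without wild-type replicate 1 and 0.04 without wild-type replicate 3. The SD was larger in knockout than in wild-type hearts for 5 of the 6 genes, all but Irx3, where 63.3% of all clusters had the larger SD in the knockout.

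**Figure D2:**
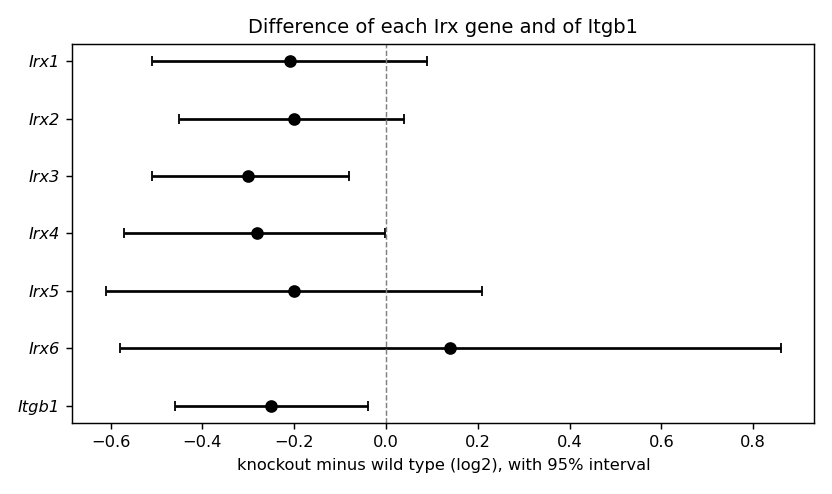
Knockout minus wild-type difference (log2, horizontal axis) of Irx1 to Irx6 and of Itgb1, as points with limma's 95% interval, unadjusted, from 3 hearts per group. The intervals of Irx3, Irx4 and Itgb1 lie below 0, and those of Irx1, Irx2, Irx5 and Irx6 include 0.

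**Figure D3:**
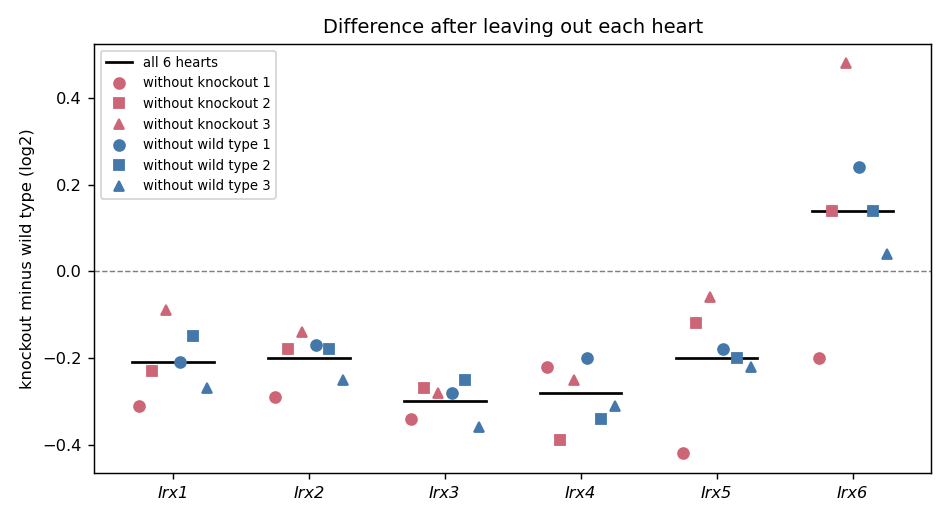
Knockout minus wild-type difference (log2, vertical axis) of each Irx gene with all 6 hearts (line) and after leaving out each heart in turn (points, blue for wild type and red for knockout). Irx3 stays between -0.36 and -0.25, while Irx6 runs from -0.20 to 0.48.

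Irx4 and Irx3 were then set against the other members within each heart, as the log2 signal minus the mean of the other 5 genes, in which a shift shared by the family cancels. For Irx4 this value was 1.94, 1.69 and 1.91 in the wild-type hearts (replicates 1 to 3) and 1.27, 1.96 and 1.91 in the knockout hearts. Knockout replicate 1 was low, knockout replicate 3 lay within the wild-type range and knockout replicate 2 just above it. The mean difference of -0.13 became 0.09 without knockout replicate 1 and 0.07 with arrays weighted by how closely they follow their group mean. For Irx3 the value was 0.16, 0.28 and 0.19 in the wild-type hearts (replicates 1 to 3) and -0.12, 0.01 and 0.31 in the knockout hearts, a mean difference of -0.14. That difference was -0.05 without knockout replicate 1 and -0.27 without knockout replicate 3. The groups overlapped for both genes, and these values, like the following ones, are given with no test because the members were chosen with results known. Irx4 minus Irx3 stood at 1.36 ± 0.17 (SD, n = 3) for wild-type and 1.37 ± 0.23 (SD, n = 3) for knockout hearts. The mean of the other 5 includes Irx6, the member with the widest spread and a higher mean in the knockout. Against Irx6 alone the group difference was -0.42 for Irx4 and -0.43 for Irx3. Against Irx5 alone it was -0.08 for Irx4 and -0.10 for Irx3. For Irx1 and Irx2 minus Irx4 it was 0.07 and 0.08, and for Irx1 and Irx2 minus Irx3 it was 0.08 and 0.09.

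By genomic cluster, the mean of the IrxA genes was 8.71, 8.65 and 8.54 in the wild-type hearts (replicates 1 to 3) and 8.47, 8.47 and 8.25 in the knockout hearts, a difference of -0.23 without overlap. The mean of the IrxB genes was 7.81, 7.75 and 7.60 in the wild-type hearts (replicates 1 to 3) and 8.00, 7.54 and 7.27 in the knockout hearts, a difference of -0.12 with overlap. In the IrxB mean knockout replicate 1 was the highest heart and the other knockout hearts were the lowest. Without that heart the IrxB difference was -0.32 and the groups did not overlap, while without knockout replicate 3 it was 0.05. The IrxB difference was -0.07 without wild-type replicate 1 and -0.18 without wild-type replicate 3. The IrxA difference ran from -0.28 to -0.16 over the 6 leave-outs, with no overlap in any.

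The hearts also differed within each group. Wild-type replicate 3 was the lowest wild-type heart for 5 of the 6 genes, all but Irx4, and knockout replicate 3 was the lowest knockout heart for 4, Irx1, Irx2, Irx5 and Irx6. These hearts had the highest mean of 9 cushion mesenchyme markers in their group, 9.21 against 8.61 and 8.27 in the other wild-type hearts, and 9.25 against 8.68 and 8.78 in the other knockout hearts. The cushion list was not alone in this. Wild-type and knockout replicate 3 were also highest in their groups for liver and foregut markers, at 5.80 and 6.11. The same held for neural markers, at 5.50 and 5.56, and for cartilage and limb markers, at 6.22 and 6.17. Knockout replicate 1 was the highest knockout heart for 5 genes and the lowest for Irx4. In it the mean of 8 erythroid markers was 10.28, against 8.73 to 9.22 in the other 5 hearts of both groups. The mean of 10 cardiomyocyte markers was 12.41, 12.39 and 12.34 in the wild-type hearts (replicates 1 to 3) and 12.26, 12.37 and 12.30 in the knockout hearts, with knockout replicates 1 and 3 the lowest, as for Irx4. The part of these cell types in the Irx values was not tested.

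**Figure D4:**
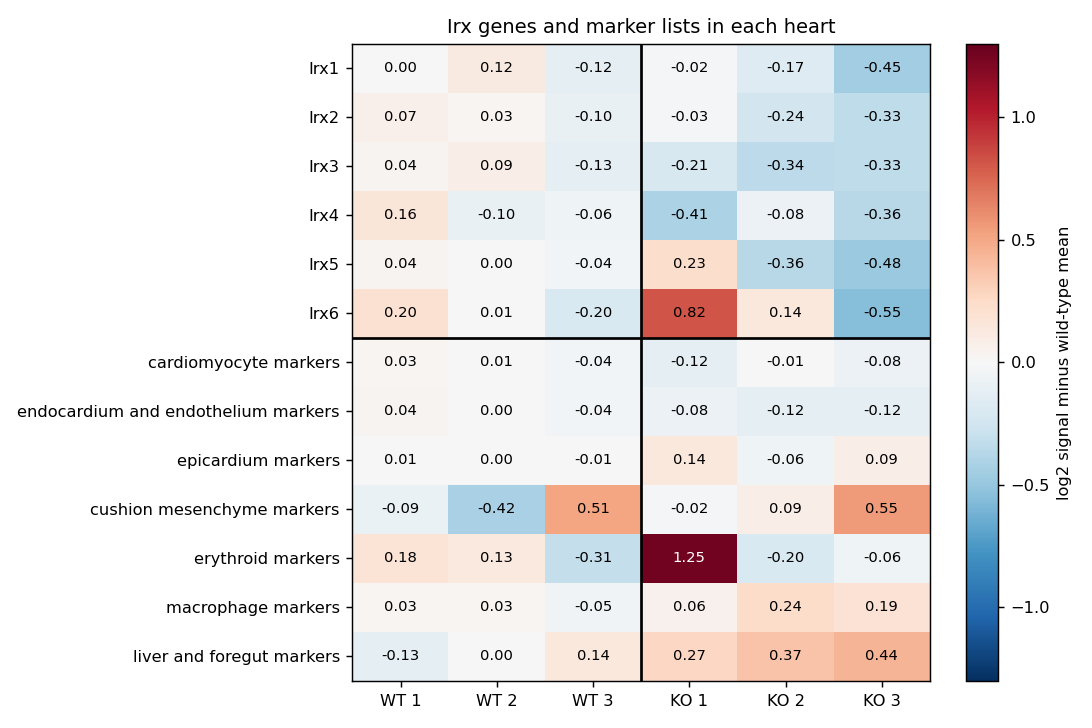
Log2 signal of each Irx gene, and mean of each cell type marker list, minus its wild-type mean (colour and printed value) in 3 wild-type (WT) and 3 knockout (KO) hearts. Knockout replicate 1 is at 0.82 for Irx6 and 1.25 for erythroid markers, and knockout replicate 3 is at -0.55 for Irx6 and 0.55 for cushion mesenchyme markers.

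The other marker lists are given as their mean in each heart. The 10 endocardial and endothelial markers were at 9.77 to 9.86 in wild-type and 9.70 to 9.74 in knockout hearts, lower by 0.10 without overlap, with 7 of 10 lower. The 8 epicardial markers were at 8.59 to 8.61 and 8.54 to 8.74. The 10 macrophage markers, all higher by their means, were at 6.89 to 6.97 and 7.00 to 7.18, and the 11 liver and foregut markers, 9 of them higher, at 5.53 to 5.80 and 5.93 to 6.11. Neither of the last lists overlapped between the groups. Tissues outside the heart that express Irx genes were covered by 9 neural markers, at 5.24 to 5.50 and 5.39 to 5.56. The 8 cartilage and limb markers were at 5.91 to 6.22 and 6.01 to 6.17. These list means were all under the array medians. In the cartilage and limb list Col2a1 and Sox9, the latter also a cushion marker, lay above the medians in every heart. They were at the 77.1st and 69.9th percentiles of all clusters, and the other members of that list lay under the medians. Of the 82 markers of all these lists, 0 passed limma's test over all clusters and 6 had an unadjusted p under 0.05, against 5.93% of all clusters.

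Each Irx cluster was read with its flanking protein-coding genes in RefSeq order, the nearest 3 measured genes on each side. Of these 12 neighbours 8 had a lower mean in the knockout, with a median difference of -0.06 and a range of -0.27 to 0.29. Beside IrxA on chromosome 13, the differences were -0.13 for the Mediator subunit gene Med10, -0.01 for Ice1 and 0.22 for the metalloproteinase gene Adamts16 on the Irx1 side. On the Irx4 side they were -0.20 for Ndufs6, a complex I subunit gene, -0.27 for the mitochondrial ribosomal protein gene Mrpl36 and -0.12 for Lpcat1. Leaving out knockout replicate 1 gave -0.13 for Ndufs6, -0.03 for Mrpl36, -0.04 for Lpcat1 and 0.02 for Med10. Adamts16 was the neighbour, 1 of 12, whose groups did not overlap, with knockout hearts higher. Over all clusters 12.6% had no overlap in either direction.

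Beside IrxB on chromosome 8, the differences were -0.17 for Aktip, 0.08 for Rpgrip1l and -0.10 for the RNA demethylase gene Fto on the Irx3 side. On the Irx6 side they were 0.29 for the gelatinase gene Mmp2, 0.04 for Lpcat2 and -0.01 for Capns2. None of the 12 passed limma's test over all clusters, and 1, Adamts16, had an unadjusted p under 0.05, against 5.93% of all clusters. The long noncoding RNA gene Crnde, which lies next to Irx5, was 7.63, 7.71 and 7.65 in the wild-type hearts (replicates 1 to 3) and 7.61, 7.44 and 7.43 in the knockout hearts. Its knockout hearts all lay just below the wild-type hearts, by -0.17 ± 0.09 (SE; limma, adjusted p = 0.797). Irx3os, next to Irx3, differed by -0.01 ± 0.09 (SE; limma, adjusted p = 0.986).

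**Figure D5:**
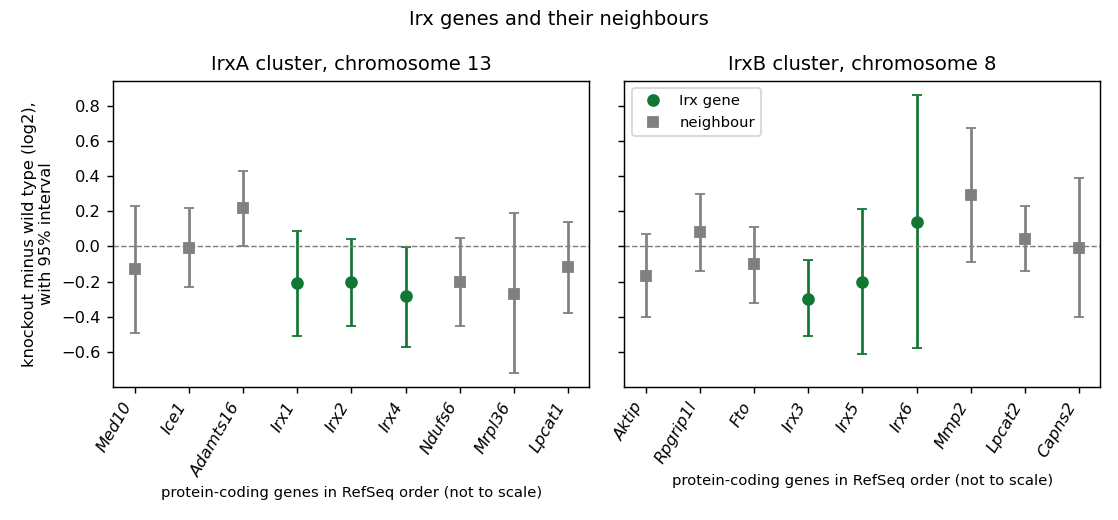
Knockout minus wild-type difference (log2, vertical axis) with limma's 95% interval for the Irx genes (green circles) and for the 3 nearest measured protein-coding genes on each side (grey squares), in RefSeq order and not to scale. The IrxA genes run from -0.28 to -0.20, and their neighbours from -0.27 to 0.22.

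Genes that work with the Irx factors were read from lists, 75 measured genes in all. Of these 0 passed limma's test and 6 had an unadjusted p under 0.05, against 5.93% of all clusters. The median difference of the 75 genes was 0.01, against -0.02 over all genes. Of 17 regulators and partners of Irx factors, 7 were lower and 10 higher, with a median of 0.03. Hey1, a Notch-induced repressor, was 7.25, 7.20 and 7.27 in the wild-type hearts (replicates 1 to 3) and 7.66, 7.40 and 7.56 in the knockout hearts. The knockout hearts were all above the wild-type hearts, by 0.30 ± 0.09 (SE; limma, adjusted p = 0.797). The cardiac homeobox gene Nkx2-5, which acts upstream of Irx4, differed by -0.17 ± 0.08 and the muscle transcription factor gene Mef2c by 0.17 ± 0.08, both without overlap, and Gata6 by 0.22 ± 0.11 with overlap. Of the 17 genes of this list 2 were lower and 2 higher without overlap, against 6.61% and 6.01% of all clusters.

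Of 14 genes of conduction or described as Irx targets, 6 were lower and 8 higher, with a median of 0.09. Kcnd2, a potassium channel gene that Irx5 represses in the adult ventricle, was 7.82, 7.68 and 7.35 in the wild-type hearts (replicates 1 to 3) and 7.21, 7.36 and 7.09 in the knockout hearts. The groups overlapped by 1 knockout heart, and the difference was -0.40 ± 0.14 (SE; limma, adjusted p = 0.797). The calcium channel gene Cacna1g differed by 0.47 ± 0.19, the natriuretic peptide gene Nppa by 0.16 ± 0.09 and the vitamin D receptor gene Vdr by 0.17 ± 0.11. The connexin genes that Irx3 regulates in the conduction system were at -0.13 ± 0.13 for Gja5 and 0.18 ± 0.13 for Gja1, or -0.21 and 0.06 without knockout replicate 1. Without knockout replicate 3 Gja5 was at -0.03 and Gja1 at 0.26.

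Of 15 genes of the trabecular myocardium, the site of Irx3, 7 were lower and 8 higher, with a median of 0.01. Those with the lowest p were Cited1, a transcriptional coregulator gene, at -0.23 ± 0.09 (log2, SE), the guidance factor gene Sema3a at -0.21 ± 0.09, the adrenomedullin gene Adm at 1.28 ± 0.60 and Smpx at -0.23 ± 0.12. Adm was 9.72 in knockout replicate 1 and 6.72 to 7.78 in the other hearts, and its difference was 0.50 without that replicate. The mean of the 15 trabecular genes was also highest in knockout replicate 1, at 10.19 against 9.86 to 9.97 in the other hearts. Of 10 genes of the compact myocardium, 4 were lower and 6 higher, with a median of 0.09, and Fgfr2 (0.57), Hey2 (0.16), Wnt11 (0.12) and Ccnd2 (-0.10) had the lowest p. Hey2 stood at 0.06 and Ccnd2 at -0.06 without knockout replicate 1. The SE of Fgfr2 was 0.43. Its difference ran from 0.20 without wild-type replicate 2 to 1.02 without wild-type replicate 3.

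Of 9 genes of the ventricular chamber, the site of Irx4, 6 were lower and 3 higher, with a median of -0.06. The myosin light chain gene Myl3 was at -0.21 ± 0.08 (log2, SE), Gja1 at 0.18, Hey2 at 0.16 and Pln, which encodes the calcium pump regulator phospholamban, at -0.10. The ventricular myosin genes Myl2 and Myh7 differed by -0.09 ± 0.09 and -0.03 ± 0.08, beside -0.28 ± 0.12 for Irx4; the difference between these values was not tested. Without knockout replicate 1, Myl2 stood at -0.04, Pln at -0.03 and Irx4 at -0.22. Of 10 atrial genes, 2 were lower and 8 higher, with a median of 0.06. Sarcolipin, Sln, was at 0.53 ± 0.11, Hey1 at 0.30, the atrial light chain gene Myl4 at -0.16 and Nr2f1 at 0.20 ± 0.21. The Nr2f1 value depended on single hearts. It became -0.01 once knockout replicate 3 was dropped, 0.05 after dropping wild-type replicate 2, and 0.33 if knockout replicate 1 was removed. The signal of Sln was low, from 4.72 to 5.47 over the hearts and at the 24.4th percentile of all clusters. That of Nr2f1 was at the 40.7th percentile.

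The other TALE homeobox genes, relatives of the Irx genes, numbered 11 measured, of which 6 were lower and 5 higher. Their median difference was -0.06, against -0.21 for the Irx genes. Those with the lowest p were Tgif1 (0.23), Pbx4 (-0.17), Tgif2 (-0.13) and Pbx2 (-0.10). Tgif2 stood at -0.21 without knockout replicate 1 and at -0.05 without knockout replicate 3.

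The genes most like Irx3 and Irx4 across the 6 hearts were sought among 10844 genes at or above the median level, by the root mean square distance between log2 profiles centred on their means. Nearest to Irx3 were Ptrhd1 (distance 0.0416), the transporter gene Slc47a1 (0.0454) and Alkbh6 (0.0515), against a median distance of 0.192. Nearest to Irx4 were the mitochondrial ribosomal protein gene Mrpl28 (0.047), the microRNA gene Mir30d (0.049) and B4galt4 (0.0542), against a median of 0.204. Mrpl28 was 9.11, 8.98 and 8.99 in the wild-type hearts (replicates 1 to 3) and 8.67, 8.93 and 8.67 in the knockout hearts, with replicates 1 and 3 low as in Irx4. With 6 hearts and this many genes some profiles lie close by the choice itself, and no test was made.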

How the data were processed

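The values are log2 signals made by the authors with RMA, per the submitters' processing notes, and deposited as 1 value for each of 28767 transcript clusters on 6 arrays. The log2 scale was read from the range of the values. The sources used here give no RMA version, probe annotation or genome build. A platform annotation gave 1 symbol for 21776 clusters, and RefSeq (GRCm38.p6) was used for current symbols, gene order and upstream sequences. Where a gene had several clusters, that with the highest mean stood for it, and each Irx gene had 1.

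The groups were compared with limma 3.58.1 (R 4.3.3), lmFit and eBayes, two-sided, with no covariate, filter or pseudocount, and Benjamini-Hochberg adjustment over all clusters at 0.05. The code was tested on simulated data. Exact permutation tests were run on single genes. Leave-outs of member counts, cluster means and listed genes were added after seeing the data. The members and lists were chosen with earlier results of these data known. Genes named were Itgb1, the members, up to 4 genes of each list by lowest p, 3 flanking genes a side and the nearest profiles. Actc1, Tnnt2, Col2a1, Sox9, Crnde, Irx3os, Myl2, Myh7 and Gja5 were named after their values were seen. Same-numbered hearts did not deviate together (correlations of -0.0425, -0.0262 and -0.0558 over clusters, which are not independent), so hearts were not paired. Some listed genes were not analysed here.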

Additional observations from a re-analysis of the deposited data

How the results depend on the processing

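Each Irx gene was refitted under 8 processing alternatives and with each heart left out in turn. The sign and the side of the threshold were kept in all 14 for Irx1, Irx2, Irx3, Irx4 and Irx5, and in 13 for Irx6. Under the processing alternatives Irx3 ran from -0.36 to -0.27, Irx4 from -0.29 to -0.15, Irx5 from -0.33 to -0.17 and Irx6 from 0.08 to 0.17. Irx6 turned to -0.20 without knockout replicate 1, as Ice1 and Med10, which lie near IrxA, turned to 0.05 and 0.02, and the cause was not tested. Leaving out hearts gave -0.31 to -0.09 for Irx1, -0.29 to -0.14 for Irx2, -0.36 to -0.25 for Irx3, -0.39 to -0.20 for Irx4, -0.42 to -0.06 for Irx5 and -0.20 to 0.48 for Irx6. Over all clusters 0 were called except without knockout replicate 1, where 1 was, so the count ran from 0 to 1. It was no Irx gene, and 0 of the context genes were called in any alternative. With a replicate block 0 were called, Irx3 stood at -0.30 and Irx4 at -0.28, and no call changed. The block raised the SE of Irx3 from 0.09 to 0.11 and that of Irx4 from 0.12 to 0.14. It lowered the SE of the other members, for Irx5 from 0.18 to 0.15 and for Irx6 from 0.31 to 0.19. For no member was there another cluster to try. RMA compresses differences of dim clusters. Signal over background was not measured, since no scanner values were used.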
